A study of Mus musculus with 19 samples.

Results

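The genes described here are 33 components of protein folding, translocation, degradation and stress sensing in the endoplasmic reticulum (ER), chosen by name from the 53558 genes of the deposited estimates. They comprise 11 chaperones and cofactors, 5 isomerases, 3 stress sensors, 3 effectors downstream of the sensors, 8 genes of ER-associated degradation and 3 subunits of the translocon. Their RNA was measured in neoplastic cells sorted from lung tumors of *Rosa26* LSL-tdTomato; *H11* LSL-Cas9 mice on a C57BL/6J:129 mixed background, aged 6 to 12 weeks at initiation, so that Cas9 and the tdTomato reporter were present in every group. Tumors developed for 17 weeks after intratracheal delivery of a lentivirus carrying Cre and guide RNAs. The guides were inert in 7 libraries (sgNeo1, sgNT and sgNeo2, here sgInert), targeted *Cebpa*, *Cebpb* and *Cebpd* together in 7 (sgCebpa/b/d) and targeted *Lkb1*, also called *Stk11*, in 5 (sgLkb1). Cells positive for CD45, CD31, F4/80 or Ter119 and dead cells were removed by sorting, with no further gate in the labels. In bulk libraries of this kind, fewer cells of a type and less RNA per cell cannot be told apart.

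The library titles carry an animal number beginning with ZR (4 sgInert libraries), a number beginning with MT (3 sgInert, 4 sgCebpa/b/d and 3 sgLkb1 libraries) or no animal number (3 sgCebpa/b/d and 2 sgLkb1 libraries), and the sources do not say what these series are. The 4 MT-numbered sgCebpa/b/d libraries came from female and the 3 unnumbered ones from male mice, so that title series and sex cannot be told apart in that group. The 5 sgLkb1 libraries came from females, and the sgInert libraries from 3 females and 4 males. Several libraries share an animal (3 in sgCebpa/b/d, 2 in sgInert and 2 in sgLkb1), so n counts libraries, and p-values measure the spread between libraries. Libraries held 2760722 to 9944131 counts, of which the members took 0.464% to 0.675%. *Stk11* was below every sgInert library in every sgLkb1 library, with a log2 fold change of -1.24 ± 0.17 (SE) and an adjusted p of 0.000107 in edgeR's quasi-likelihood test. *Cebpa* RNA was higher in sgCebpa/b/d than in sgInert libraries (0.73 ± 0.14, adjusted p = 0.00148), *Cebpb* (1.16 ± 0.37, adjusted p = 0.0524) and *Cebpd* (0.20 ± 0.28, adjusted p = 0.742) did not pass the test, and the amount of RNA does not show whether a Cas9 cut disrupted the reading frame. The alveolar type II marker *Sftpc* stood at 13.23 to 14.09 log2 CPM (counts scaled to a common library size) over all libraries. Against sgInert it was lower in sgCebpa/b/d (-0.31 ± 0.10, adjusted p = 0.0458) and in sgLkb1 (-0.39 ± 0.11, adjusted p = 0.0324, edgeR).

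The ER lumen folds secreted and membrane proteins. BiP, the product of *Hspa5*, is its main HSP70 chaperone, works with J-domain cofactors and nucleotide exchange factors, and holds the sensors IRE1, PERK and ATF6 inactive until unfolded protein draws it away. IRE1 then splices *Xbp1* RNA, PERK phosphorylates eIF2alpha and so favours translation of *Atf4*, and ATF6 is cut to release a transcription factor; together they raise chaperones and the machinery that returns misfolded protein to the cytosol for degradation. Alveolar type II cells, a main cell of origin of such tumors, secrete surfactant and carry a large ER load. The C/EBP factors targeted here belong to the same bZIP family as ATF4, ATF6, XBP1 and CHOP.

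The classical promoter element of this response, the ER stress element (ERSE), is shown because it ties the members to ATF6 and XBP1. Of the 8 members called against sgInert below, *Atf6* and *Derl1* had no window to search, and of the rest only *Dnajc3* held the element. Promoter windows of 250 bases before and 50 after the start site were taken from RefSeq (GRCm38.p6) and held 28 of the 33 members; *Atf6*, *Derl1*, *Hyou1*, *Manf* and *Sec61a1* had none there. CCAAT and CCACG separated by 9 bases, on either strand, occurred in 9 of the 28 members (32.1%) and in 0.137% of all 27025 genes with a window. These are, with 20 bases on either side, 5′ to 3′ on the strand of the gene and with the element's fixed letters in capitals (CGTGG and ATTGG where it lies on the other strand):
Hspa5 (chr2:34772005-34772063, + strand): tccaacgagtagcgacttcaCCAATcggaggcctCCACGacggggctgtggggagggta
Hsp90b1 (chr10:86705618-86705676, - strand): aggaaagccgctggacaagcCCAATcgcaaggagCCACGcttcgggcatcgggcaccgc
Hsp90b1, second element (chr10:86705513-86705571, - strand): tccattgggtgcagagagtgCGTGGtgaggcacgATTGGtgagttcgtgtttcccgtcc
Calr (chr8:84847055-84847113, - strand): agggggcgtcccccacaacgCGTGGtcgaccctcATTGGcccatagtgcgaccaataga
Canx (chr11:50325780-50325838, - strand): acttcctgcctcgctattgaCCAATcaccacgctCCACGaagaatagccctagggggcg
Pdia6 (chr12:17266471-17266529, + strand): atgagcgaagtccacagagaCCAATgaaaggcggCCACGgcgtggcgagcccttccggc
Dnajc3 (chr14:118937807-118937865, + strand): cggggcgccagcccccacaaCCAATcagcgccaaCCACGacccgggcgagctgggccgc
Creld2 (chr15:88819500-88819558, + strand): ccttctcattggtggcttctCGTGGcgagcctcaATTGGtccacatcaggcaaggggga
Syvn1 (chr19:6046512-6046570, + strand): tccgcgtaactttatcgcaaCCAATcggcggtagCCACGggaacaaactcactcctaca
Derl3 (chr10:75893222-75893280, + strand): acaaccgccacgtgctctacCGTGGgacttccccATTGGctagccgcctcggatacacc

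The shorter ERSE-II, ATTGG and CCACG 1 base apart, occurred in *Herpud1* and *Dnajb11* (2 of 28 members, 7.14%, against 0.0444% of all genes with a window). That of *Herpud1* lies 52 bases before its start site. No member held both elements.
Herpud1 (chr8:94386357-94386407, + strand): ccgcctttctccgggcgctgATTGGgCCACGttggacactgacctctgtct
A C/EBP consensus, TTGCNNAA on either strand, occurred in *Canx*, *Edem2* and *Xbp1* (3 of 28, 10.7%, against 12.2% of all genes with a window). The cAMP response element TGACGTCA occurred in *Ppp1r15a* (1 of 28, 3.57%, against 2.03%). The CHOP and ATF4 composite TGATGNAA occurred in *Herpud1* (3.57%, against 4.51%), and the XBP1 element TGACGTGG in none of the 28 (0.714% of all genes with a window). Overlaps between these motifs were not removed. *Edem1*, the member with the smallest p in any comparison below, held 1 CCAAT and 2 CCACG (capitals, either strand) but not at the ERSE spacing.
Edem1 (chr6:108828391-108828640, + strand, the 250 bases before the start site): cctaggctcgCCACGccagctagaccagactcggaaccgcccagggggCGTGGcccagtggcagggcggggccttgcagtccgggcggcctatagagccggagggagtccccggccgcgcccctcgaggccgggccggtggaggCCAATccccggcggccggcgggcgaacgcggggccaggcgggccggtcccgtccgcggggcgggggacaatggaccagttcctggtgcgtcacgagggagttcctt

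Per unit of length, in the deposited TPM (transcripts scaled for gene length and library size), *Hsp90b1* was the most abundant member, with a median of 745 TPM over the 19 libraries and a range of 426 to 882. *Hspa5* followed at 406 (230 to 529), then *Sec61b* at 330 (273 to 412), *Pdia3* at 288 (162 to 374) and *Canx* at 205 (159 to 249). Between neighbours among these 5 the ranges overlapped. The sensors lay far lower, with medians of 23.1 TPM for *Atf6*, 14.8 for *Ern1* and 12.5 for *Eif2ak3*. *Derl3* was lowest, at 1.09 TPM (0.25 to 2.64, below every library of the next member, *Sdf2l1*), with 2 to 5 counts per sgInert library, 1 to 5 per sgCebpa/b/d library and 4 to 14 per sgLkb1 library; it failed the filter on low counts and was not tested, which leaves 32 tested members.

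In neither targeted group was any member called higher against sgInert, and 4 were called lower in each. A gene is called here at an adjusted p below 0.05 over all 13986 genes tested (edgeR, 1 model of all 19 libraries). Against sgInert, sgLkb1 had 0 members called higher (393 of all genes, 2.81%) and 4 lower, which is 12.5% of the 32 against 2.97% of all genes. These were *Edem1*, *Ern1*, *Dnajc3* and *Sec61b*. Against sgInert, sgCebpa/b/d also had 0 called higher (4.73% of all genes) and 4 lower (12.5% against 5.36%), which were *Ppib*, *Atf6*, *P4hb* and *Derl1*. The 2 comparisons share the sgInert libraries. DESeq2 likewise called 0 members higher, and 4 lower in sgLkb1 and 6 in sgCebpa/b/d. At an unadjusted p below 0.05 in either direction there were 9 of 32 members in sgLkb1 and 12 in sgCebpa/b/d, against 2589 and 3251 of all 13986 genes. No member reached an absolute log2 fold change of 1, a size that 1419 and 1482 of all genes passed. The median log2 fold change of the members was -0.17 in sgLkb1 (29 of 32 below 0) and -0.19 in sgCebpa/b/d (24 of 32 below 0), while that of all genes was -0.01 and 0.02. With log2(TPM + 1) in place of counts, the median of all genes in sgLkb1 moved to 0.18 and that of the members to 0.04, with 14 of 32 below 0.

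**Figure D1:**
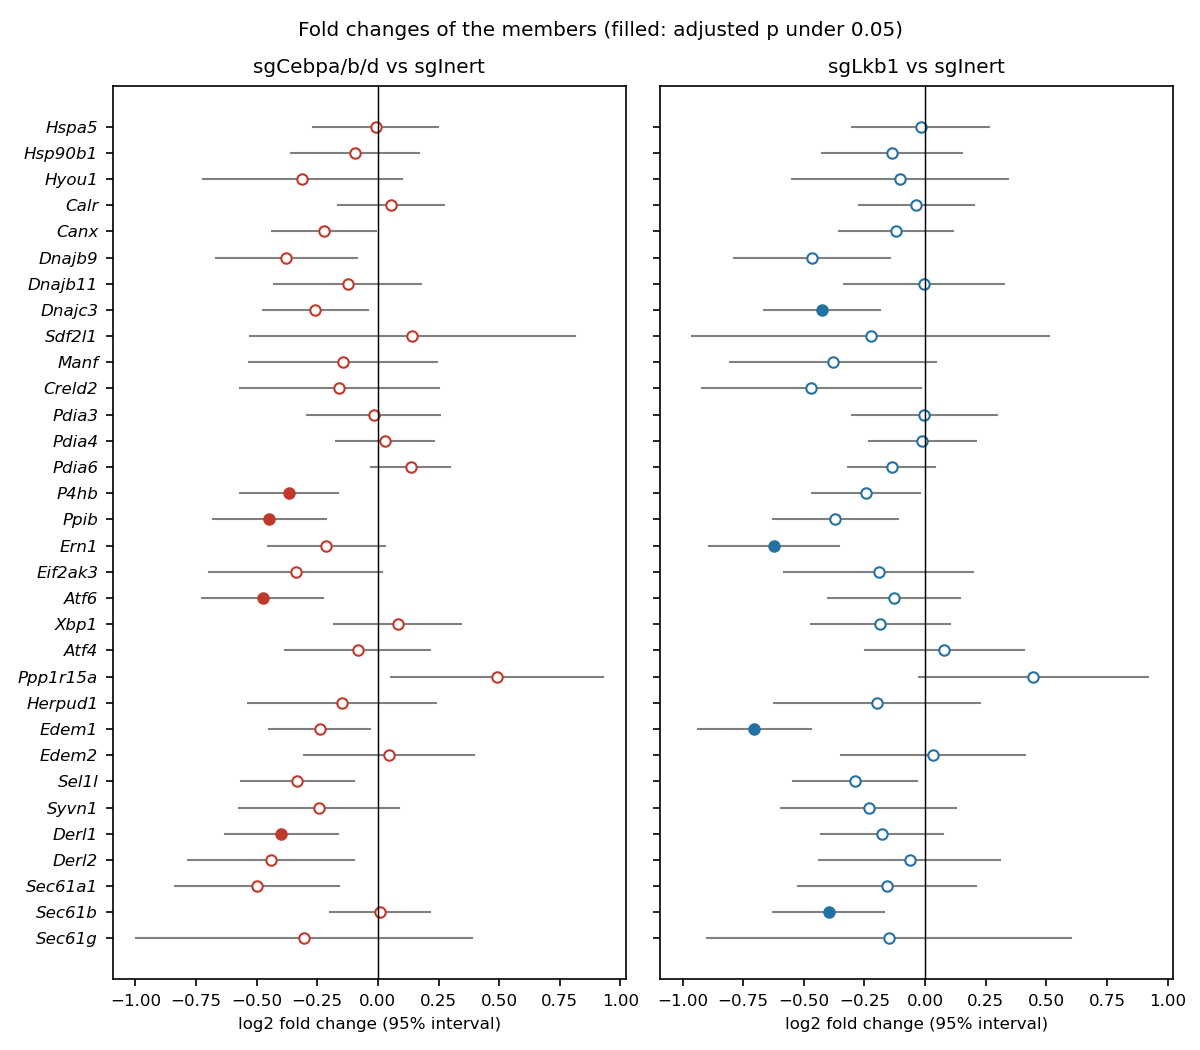
Log2 fold change (points) with its 95% interval (lines) for the 32 tested members in sgCebpa/b/d (left) and sgLkb1 (right) against sgInert, from edgeR's model. Filled points, 4 in each panel, passed an adjusted p of 0.05, and all 8 lie below 0.

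Among the chaperones, BiP itself passed the test in neither comparison. *Hspa5* ranged from 8.995 to 9.68 log2 CPM in sgInert libraries (median 9.44) and from 9.03 to 9.77 in sgCebpa/b/d libraries (median 9.41). The 5 sgLkb1 libraries stood at 9.45, 9.19, 9.43, 9.58 and 9.28. The ranges overlapped, and that of sgLkb1 lay inside those of the other groups. The log2 fold change was -0.01 with a 95% interval of -0.27 to 0.25 in sgCebpa/b/d and -0.02 with an interval of -0.30 to 0.26 in sgLkb1 (adjusted p = 0.977 and 0.966, edgeR). *Hsp90b1*, the ER member of the HSP90 family, stood at -0.09 and -0.14, and *Calr*, a lectin chaperone that binds newly glycosylated proteins, at 0.05 and -0.04.

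*Dnajc3*, or p58IPK, a J-domain cofactor of BiP, was the chaperone that passed the test. It ranged from 8.14 to 8.80 log2 CPM in sgInert (median 8.65) and stood at 8.17, 7.98, 8.13, 8.11 and 8.19 in sgLkb1, so that the lowest sgInert library lay within the sgLkb1 range and all others above it. Its log2 fold change was -0.42 ± 0.12 (SE), or fell by 25.5%, with an adjusted p of 0.0303 (edgeR). The call was lost without any 1 of the 5 sgLkb1 libraries or without sgInert replicate 1, 3, 4 or 6 (adjusted p = 0.0512 to 0.0895), and among MT-numbered libraries alone the value was -0.20 (adjusted p = 0.318). Against sgInert, sgCebpa/b/d stood at -0.26 ± 0.10 (adjusted p = 0.128), with libraries from 8.07 to 8.54. *Dnajb9*, or ERdj4, a J-domain cofactor that is among the classical targets of spliced *Xbp1*, did not pass in either comparison over all libraries (-0.38, adjusted p = 0.0944, and -0.47, adjusted p = 0.0835) and is taken up with the title series below. The other uncalled chaperones ranged from -0.31 (*Hyou1*) to 0.14 (*Sdf2l1*) in sgCebpa/b/d and from -0.47 (*Creld2*) to -0.003 (*Dnajb11*) in sgLkb1.

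Of the isomerases, *P4hb* and *Ppib* fell in sgCebpa/b/d. *Ppib*, cyclophilin B, which turns prolyl bonds during folding, ranged from 6.02 to 6.36 log2 CPM in sgInert (median 6.09) and from 5.31 to 5.93 in sgCebpa/b/d (median 5.85), with no overlap. The sgLkb1 libraries stood at 5.69, 5.55, 5.99, 5.88 and 5.80, also below every sgInert library. Its log2 fold change stood at -0.45 ± 0.11 in sgCebpa/b/d (adjusted p = 0.0115) and -0.37 ± 0.12 in sgLkb1, where it did not pass (adjusted p = 0.0852, edgeR). *P4hb*, protein disulfide isomerase, which forms and exchanges disulfide bonds, ranged from 8.14 to 8.57 in sgInert (median 8.30) and from 7.52 to 8.16 in sgCebpa/b/d (median 8.06), with the 2 groups overlapping at their edges. The sgLkb1 libraries stood at 8.04, 8.09, 8.15, 8.03 and 8.04. Its log2 fold change stood at -0.37 ± 0.10 in sgCebpa/b/d (adjusted p = 0.0171) and -0.24 ± 0.11 in sgLkb1 (adjusted p = 0.215). *Pdia3*, *Pdia4* and *Pdia6*, the other disulfide isomerases, ranged from -0.02 to 0.14 in sgCebpa/b/d and from -0.14 to -0.003 in sgLkb1, and none passed.

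Each of the 3 sensors lay below 0 in both comparisons, and a different sensor passed in each. *Ern1*, which encodes IRE1alpha (chr11:106394650-106487852, - strand, GRCm38), ranged from 5.83 to 6.43 log2 CPM in sgInert (median 6.06). It stood at 5.57, 5.59, 5.65, 5.32 and 5.36 in the sgLkb1 libraries, all of them below every sgInert library. The log2 fold change was -0.62 ± 0.13, or fell by 35%, with an adjusted p of 0.00491 (edgeR), and it passed without any 1 library. In sgCebpa/b/d, *Ern1* ranged from 5.54 to 6.09 (median 6.07; -0.21 ± 0.12, adjusted p = 0.287).

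*Atf6*, a transcription factor held in the ER membrane (chr1:170704674-170867771, - strand), ranged from 6.86 to 7.68 in sgInert (median 7.00) and from 6.35 to 6.85 in sgCebpa/b/d (median 6.61), with no overlap. In sgLkb1 it stood at 6.85, 7.05, 6.97, 7.12 and 6.78, within or close to the sgInert range. The log2 fold change stood at -0.48 ± 0.12 in sgCebpa/b/d (adjusted p = 0.0115) and -0.13 ± 0.13 in sgLkb1 (adjusted p = 0.675). *Eif2ak3*, which encodes PERK, had log2 fold changes of -0.34 ± 0.17 (adjusted p = 0.243) and -0.19 ± 0.19 (adjusted p = 0.657).

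The effectors did not pass. *Xbp1* had a log2 fold change of 0.08 in sgCebpa/b/d, with an interval of -0.18 to 0.34, and -0.18 in sgLkb1, with an interval of -0.47 to 0.10; the estimates are per gene and do not separate spliced from unspliced *Xbp1*. *Atf4* stood at -0.08 (-0.38 to 0.22) and 0.08 (-0.25 to 0.41). *Ppp1r15a*, or GADD34, which directs the dephosphorylation of eIF2alpha, had the highest values of any member, 0.49 ± 0.21 in sgCebpa/b/d (adjusted p = 0.153) and 0.45 ± 0.23 in sgLkb1 (adjusted p = 0.304). Its sgInert libraries spread from 4.20 to 5.82 log2 CPM, while the sgCebpa/b/d libraries lay between 5.38 and 6.26 and the sgLkb1 libraries between 5.60 and 6.06.

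Among the degradation genes, *Edem1* stood apart. It encodes a mannosidase-like protein that takes misfolded glycoproteins out of the folding cycle, and lies at chr6:108828641-108859356 on the + strand (GRCm38). It ranged from 6.96 to 7.42 log2 CPM in sgInert (median 7.12) and from 6.55 to 7.17 in sgCebpa/b/d (median 6.96). In the sgLkb1 libraries it stood at 6.37, 6.70, 6.39, 6.46 and 6.38, all of them below every sgInert library. The group means were 7.16 ± 0.19 (SD, n = 7), 6.92 ± 0.19 (SD, n = 7) and 6.46 ± 0.14 (SD, n = 5). The log2 fold change was -0.70 ± 0.11 in sgLkb1, or fell by 38.6%, with an adjusted p of 0.000464 (edgeR), and -0.24 ± 0.10 in sgCebpa/b/d (adjusted p = 0.14). It passed without any 1 library (adjusted p = 0.000289 to 0.00269) and among MT-numbered libraries alone (-0.60, adjusted p = 0.0113).

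The *Edem1* and *Ern1* calls in sgLkb1 rest on counts that are not corrected for transcript length. RSEM's effective length of *Edem1*, which follows the mix of transcripts assigned to the gene, was 2628 to 4322 bases in sgInert libraries (median 3560) and 1693 to 4266 in sgLkb1 libraries (median 2926). That of *Ern1* was 4495 to 6040 (median 5281) and 3134 to 5831 (median 4493). With these lengths as offsets, *Edem1* stood at -0.26 (adjusted p = 0.64) and *Ern1* at -0.34 (adjusted p = 0.273), and on the log2(TPM + 1) scale both stood at -0.14 (adjusted p = 0.783 and 0.699). How much of the fall in counts came with a change in the transcripts used was not tested.

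*Derl1*, a channel component of the degradation machinery, fell in sgCebpa/b/d. It ranged from 5.74 to 6.38 in sgInert (median 5.93) and from 5.27 to 5.80 in sgCebpa/b/d (median 5.56), and stood at 5.63, 5.97, 5.93, 5.80 and 5.65 in sgLkb1. The log2 fold change stood at -0.40 ± 0.11 in sgCebpa/b/d (adjusted p = 0.0238) and -0.18 ± 0.12 in sgLkb1 (adjusted p = 0.478). Without sgInert replicate 1, which was its highest library, or without sgCebpa/b/d replicate 6 or 7, the call was lost (adjusted p = 0.0516 to 0.0612). *Sel1l*, the adaptor that joins substrates to the ubiquitin ligase, stood at -0.33 ± 0.11 (adjusted p = 0.0638) and -0.29 ± 0.12 (adjusted p = 0.198), and *Syvn1*, that ligase, at -0.24 and -0.23. *Derl2*, a relative of *Derl1*, stood at -0.44 ± 0.16 (adjusted p = 0.0983) and -0.06 ± 0.18 (adjusted p = 0.903), and *Herpud1*, which helps assemble the ligase complex, at -0.15 and -0.20. *Edem2*, the relative of *Edem1* that trims mannose first, stood at 0.05 and 0.03.

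In the translocon, through which nascent chains enter the ER, 1 of the 3 subunits passed the test. *Sec61b*, the beta subunit, ranged from 6.12 to 6.74 log2 CPM in sgInert (median 6.56) and from 6.33 to 6.76 in sgCebpa/b/d (median 6.52). In sgLkb1 it stood at 6.06, 6.14, 6.12, 6.20 and 6.21, below every sgCebpa/b/d library and, with the exception of the lowest, below the sgInert libraries. Its log2 fold change was -0.40 ± 0.11 in sgLkb1 (adjusted p = 0.0327), a call that was lost without any 1 of the 5 sgLkb1 libraries or without sgInert replicate 2, 5 or 6 or sgCebpa/b/d replicate 2 (adjusted p = 0.0511 to 0.099). With the animal as a random block it stood at -0.37 (adjusted p = 0.0657), and with counts summed per animal at -0.36 (adjusted p = 0.135). *Sec61a1*, the pore-forming subunit, stood at -0.50 ± 0.16 in sgCebpa/b/d (adjusted p = 0.0549) and -0.16 ± 0.18 in sgLkb1 (adjusted p = 0.71), and *Sec61g*, with as few as 8 counts in a library, at -0.30 ± 0.33 and -0.15 ± 0.36.

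**Figure D2:**
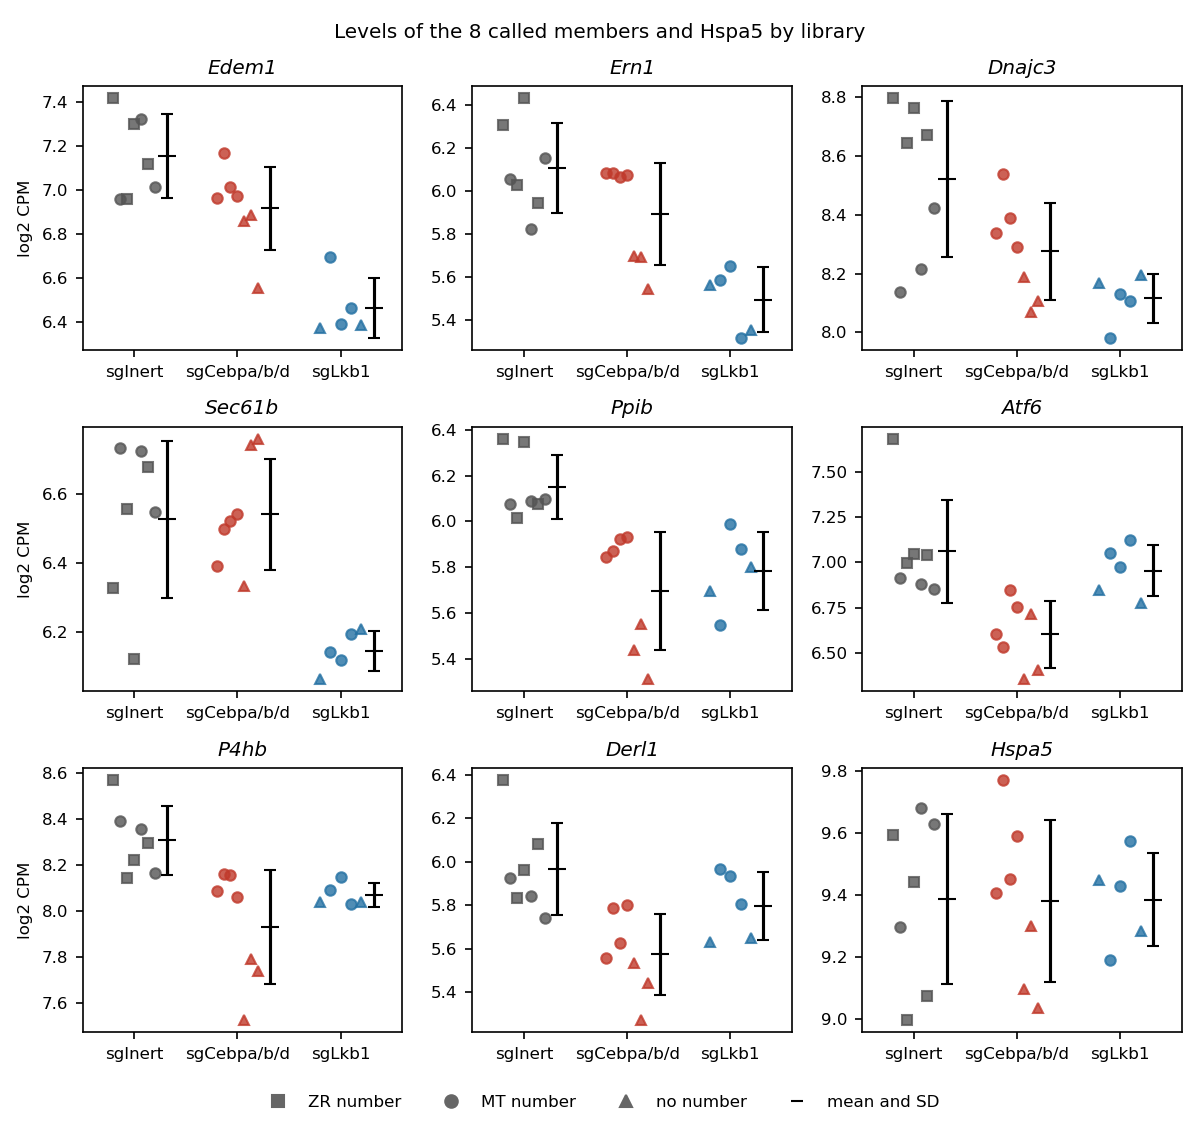
Log2 CPM (vertical axes) of the 8 members called against sgInert and of *Hspa5* in each library, by group, with squares for ZR-numbered, circles for MT-numbered and triangles for unnumbered libraries and bars for mean and SD. The 5 sgLkb1 libraries of *Edem1* (6.37 to 6.70) and of *Ern1* (5.32 to 5.65) sit below the sgInert libraries, while the ranges of *Hspa5* overlap in all groups.

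Set against each other, sgCebpa/b/d and sgLkb1 differed in *Edem1* and *Sec61b*, both higher in sgCebpa/b/d (2 of 32 members, 6.25%, against 2.83% of all genes), and no member was lower (3.12% of all genes were; 0 also with DESeq2). At an unadjusted p below 0.05 there were 6 of 32 members in either direction and 2557 of all 13986 genes, which is a similar share. The difference was 0.46 ± 0.11 for *Edem1* (adjusted p = 0.0131) and 0.40 ± 0.11 for *Sec61b* (adjusted p = 0.0288, edgeR). The *Edem1* difference turned to -0.11 with gene lengths as offsets and to -0.24 on the log2(TPM + 1) scale (adjusted p = 0.876 and 0.624). The *Sec61b* call was lost without any 1 sgLkb1 library or without sgCebpa/b/d replicate 2, 6 or 7 (adjusted p = 0.051 to 0.0961). *Ern1* was higher in sgCebpa/b/d by 0.41 ± 0.13 while *Atf6* stood at -0.35 ± 0.13, both short of the threshold (adjusted p = 0.0655 and 0.135, edgeR). DESeq2 called 4 members higher, adding *Pdia6* and *Ern1*. *Ern1* was also called with title series, sex or replicate number in the model, and among MT-numbered or female libraries alone. It was not called with length offsets, log2(TPM + 1) or without unnumbered libraries. On the log2(TPM + 1) scale *Atf6* was called lower. For *Hspa5* the difference was 0.01, with an interval of -0.27 to 0.29.

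Within sgCebpa/b/d the members split by title series, and this bears on each value of that group above. Of its 4 MT-numbered libraries, 3 came from 1 animal, and the 3 unnumbered ones carry no animal number. In 17 of the 32 tested members all 4 MT-numbered libraries lay above all 3 unnumbered ones, which is 53.1% of the members against 10.7% of all genes. They included *Hspa5*, *Hsp90b1*, *Hyou1*, *Calr*, *Canx*, *Dnajc3* and 5 of 5 isomerases. *Hyou1*, an exchange factor of BiP, differed by 0.98 on the log2 scale (MT-numbered minus unnumbered means), *Sec61a1* by 0.76, *Pdia3* by 0.68 and *Hsp90b1* by 0.64. The opposite order held for 4 members (12.5% against 11.5% of all genes), namely *Atf4*, *Ppp1r15a*, *Dnajb9* and *Herpud1*, with differences of -0.54, -0.63, -0.42 and -0.76. Within sgLkb1, 6 members lay above in the 3 MT-numbered against the 2 unnumbered libraries and 4 below (18.8% and 12.5%, against 11.6% and 12.5% of all genes).

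The 3 unnumbered sgCebpa/b/d libraries also carried the most RNA of 16 genes of dissociation and the immediate early response. The summed level of these genes was 14107 to 14633 CPM there and 6593 to 9769 in the rest of that group. In sgLkb1 it was 6518 to 9572 and in sgInert 2542 to 6709. Against sgInert, 8 of the 16 rose in sgCebpa/b/d (50%, against 4.73% of all genes), led by *Dusp1* (1.15 ± 0.25, adjusted p = 0.00319) and *Fos* (1.52 ± 0.33, adjusted p = 0.00364), and in sgLkb1 2 rose and 2 fell. Marker lists described below also divided between these libraries. The alveolar type II genes summed to 68054 to 72941 CPM in the MT-numbered sgCebpa/b/d libraries and to 37859 to 51054 in the unnumbered ones. The endothelial genes summed to 55.1 to 108 and to 282 to 377 CPM. The sums of the fibroblast, plasma and B cell and epithelial lists overlapped. The part of any of these lists in the split was not tested.

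**Figure D3:**
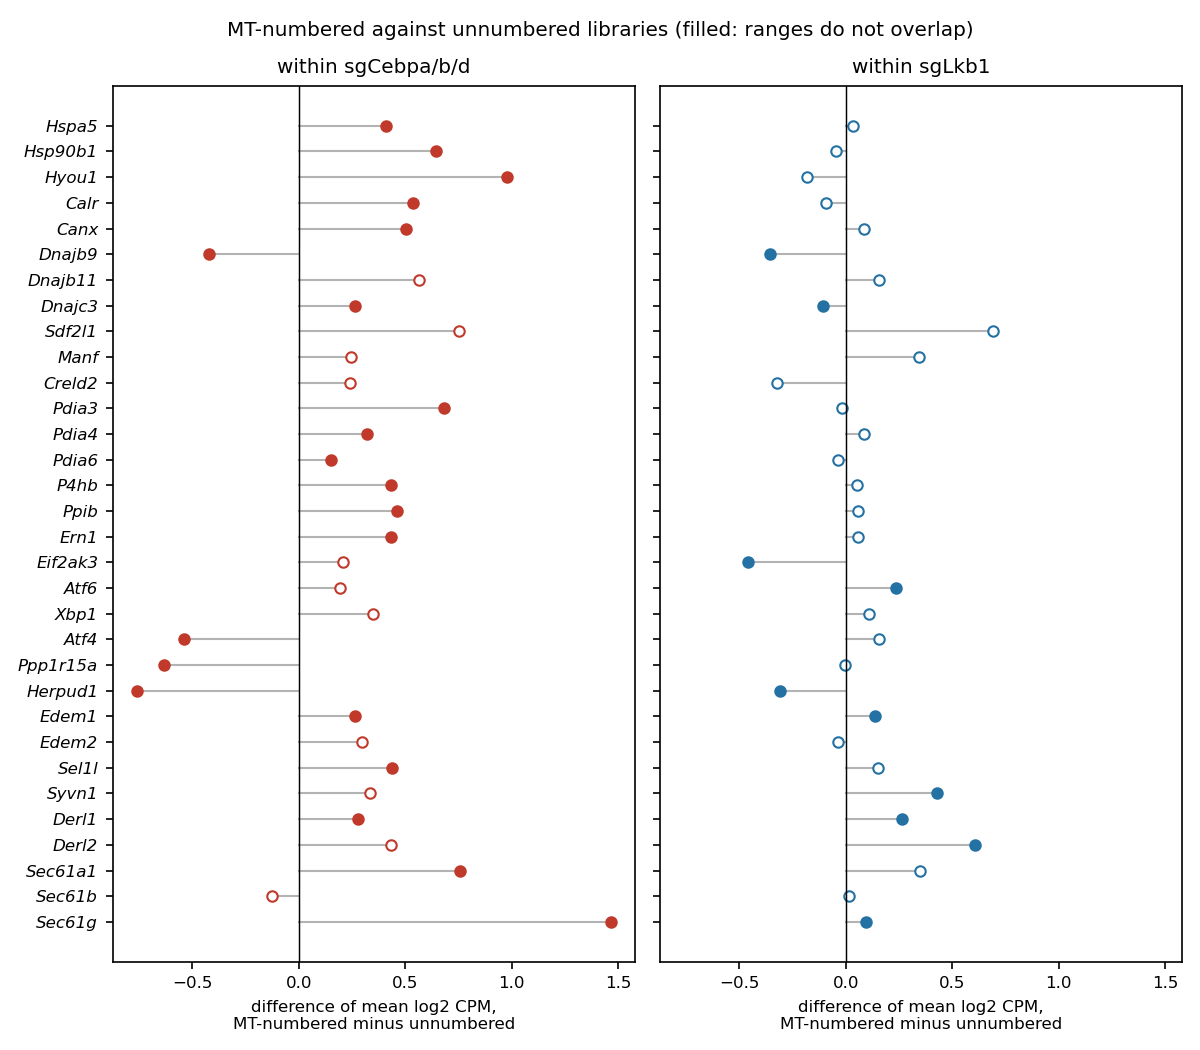
Difference of mean log2 CPM between MT-numbered and unnumbered libraries for each tested member, within sgCebpa/b/d (left, 4 against 3 libraries) and within sgLkb1 (right, 3 against 2 libraries), with filled points where the ranges did not overlap. On the left 17 filled points lie above 0 and 4 below. There, 3 of the 4 MT-numbered libraries share an animal.

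Among MT-numbered libraries alone (3 sgInert, 4 sgCebpa/b/d and 3 sgLkb1), the calls in sgCebpa/b/d were others. None of *Ppib*, *Atf6*, *P4hb* and *Derl1* passed (-0.20, -0.20, -0.20 and -0.15, adjusted p = 0.206 to 0.571), and *Atf4* and *Dnajb9* were called lower. These are 2 of 32 members, and 8.55% of the 13674 genes tested in this setting were called in either direction. *Atf4* stood at 7.17 to 7.39 log2 CPM in the 3 MT-numbered sgInert libraries and at 6.56 to 6.85 in the 4 MT-numbered sgCebpa/b/d libraries, with no overlap (-0.64 ± 0.11, adjusted p = 0.00217). The 4 ZR-numbered sgInert libraries stood at 6.53 to 7.01 and the 3 unnumbered sgCebpa/b/d libraries at 7.19 to 7.21, so that each group spans both levels. *Dnajb9* stood at 8.68 to 9.18 in MT-numbered sgInert libraries, at 7.92 to 8.45 in MT-numbered sgCebpa/b/d libraries (-0.78 ± 0.14, adjusted p = 0.00298) and at 7.97 to 8.21 in MT-numbered sgLkb1 libraries (-0.83 ± 0.15, adjusted p = 0.00345). With title series as a covariate, and among female libraries alone, *Atf4* and *Dnajb9* were again called in sgCebpa/b/d and *Dnajb9* in sgLkb1, but both settings draw largely on the same libraries. No other series occurs in both sgInert and a targeted group, and the female sgCebpa/b/d libraries are the 4 MT-numbered ones. The female sgInert libraries are replicates 2 and 5 (MT-numbered) and 4 (ZR-numbered). The female sgLkb1 libraries include the unnumbered replicates 1 and 5. With the ZR-numbered libraries kept and only the unnumbered ones left out, *Dnajb9* stood at -0.56 (adjusted p = 0.0414) and *Atf4* at -0.34 (adjusted p = 0.247) in sgCebpa/b/d. Of the MT-numbered libraries, 3 of 4 in sgCebpa/b/d and 2 of 3 in sgLkb1 came from 1 animal. The p-values among MT-numbered libraries alone do not take this into account. Over all libraries, with the animal as a random block (limma), *Atf4* stood at -0.01 in sgCebpa/b/d (adjusted p = 0.986). There *Dnajb9* stood at -0.27 (adjusted p = 0.285), and at -0.40 in sgLkb1 (adjusted p = 0.139).

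In sgLkb1 the MT-numbered libraries gave *Edem1* (-0.60, adjusted p = 0.0113), *Ern1* (-0.50, adjusted p = 0.0417) and *Sec61b* (-0.53, adjusted p = 0.00954) as lower besides *Dnajb9*. That is 4 of 32 members, and 6.97% of all genes in this setting were called in either direction. With title series as a covariate *Ern1* stood at -0.40 (adjusted p = 0.141). Against sgLkb1, the MT-numbered sgCebpa/b/d libraries were higher in *Ern1* (0.56), *Edem1* (0.51), *Pdia6* (0.35) and *Calr* (0.34) and lower in *Atf4* (-0.48), each with an adjusted p of 0.0167 to 0.0486 (edgeR). Here 4 of 32 members were higher and 1 lower, and 6.98% of all genes were called in either direction.

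**Figure D4:**
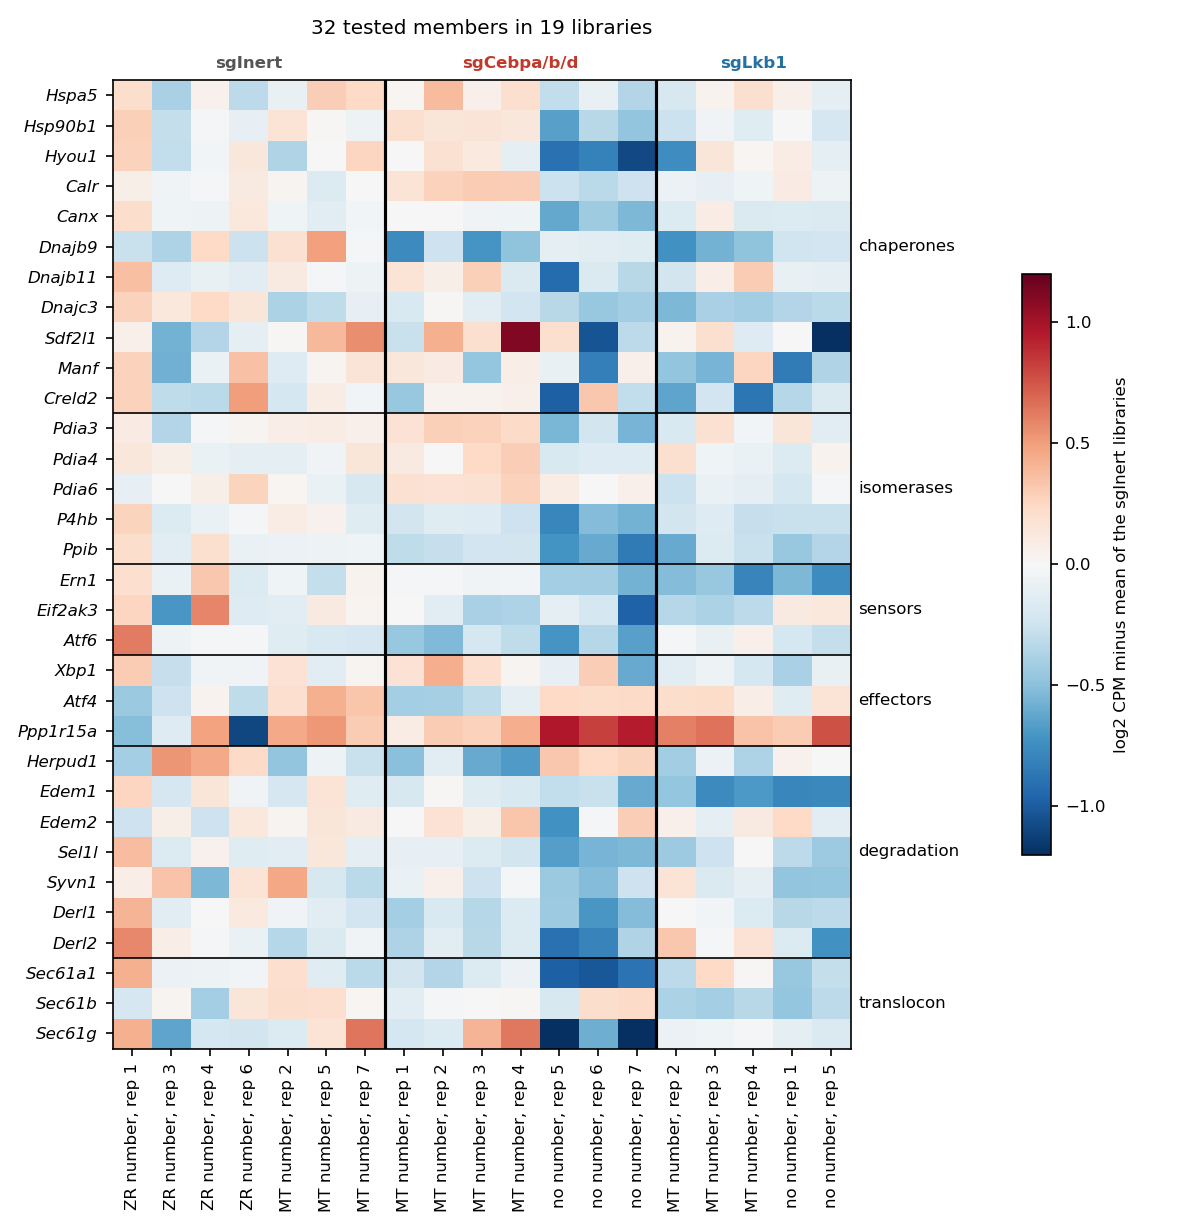
Log2 CPM of the 32 tested members (rows, ordered by role) minus their mean over the sgInert libraries, in the 19 libraries (columns, by group and title series), with colours limited to 1.2 above and below 0. The 3 unnumbered sgCebpa/b/d libraries are blue for most chaperones and isomerases and red for *Ppp1r15a*, and *Edem1* and *Ern1* are blue across the 5 sgLkb1 libraries.

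The members with an ERSE or ERSE-II in their promoter window did not stand apart by their fold changes. The 10 tested members with either element had a median log2 fold change of -0.13 in sgCebpa/b/d and -0.14 in sgLkb1, and the 17 with a window but neither element -0.21 and -0.19. Of the members called against sgInert, only *Dnajc3* held an ERSE, while *P4hb*, *Ppib*, *Ern1*, *Edem1* and *Sec61b* held neither element and *Atf6* and *Derl1* had no window.

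Beyond the members, the ER stress list with the most called genes was that of the ATF4 and CHOP branch. This list, which holds genes of amino acid supply and the stress response downstream of eIF2alpha phosphorylation as well as eIF2alpha and its other kinases, had 23 of 24 genes tested, and 7 of them fell in sgCebpa/b/d (30.4%, against 5.36% of all genes), with 0 rising and a median of -0.32. *Nupr1*, a small stress-induced nuclear protein, ranged from 5.16 to 5.79 log2 CPM in sgInert and from 3.20 to 3.71 in sgCebpa/b/d (-2.07 ± 0.17, adjusted p = 9.66e-08). *Vldlr*, a lipoprotein receptor raised through ATF4, ranged from 6.62 to 7.56 and from 3.97 to 5.80 (-1.93 ± 0.23, adjusted p = 7.29e-06). Neither gene's groups overlapped.

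The other 5, named after their values were seen, were *Atf5* (-1.64), *Asns* (-1.55), *Mthfd2* (-1.10), *Cebpg* (-0.54) and *Chac1*. *Asns* makes asparagine, *Mthfd2* serves mitochondrial one-carbon metabolism, *Cebpg* encodes a dimer partner of ATF4 and *Chac1* degrades glutathione. *Chac1* had 0 to 3 counts per sgCebpa/b/d library against 2 to 15 in sgInert and 8 to 41 in sgLkb1. *Ddit3*, which encodes CHOP, stood at -0.15 ± 0.33 (adjusted p = 0.84). In sgLkb1 none of the 23 passed in either direction. At an unadjusted p below 0.05 there were 4 of them, against 2589 of all 13986 genes. Of the 23, 8 lay below 0 and the median was 0.23. At *Nupr1* the value was -0.50 ± 0.18 (adjusted p = 0.118, edgeR). Set directly against sgLkb1, 7 of the 23 were lower in sgCebpa/b/d (30.4% against 3.12% of all genes), among them *Nupr1* (-1.57 ± 0.18, adjusted p = 1.02e-05) and *Vldlr* (-1.57 ± 0.24, adjusted p = 0.000255). The alternatives to the processing left 5 to 9 of these genes lower in sgCebpa/b/d than in sgInert, and 4 (animal as a random block) to 11 (MT-numbered libraries alone) lower than in sgLkb1. For sgLkb1 against sgInert they gave 0 to 3 genes higher and 0 lower. The calls came with DESeq2, limma without a block, the sex covariate, log2(TPM + 1) and MT-numbered libraries alone. Without sgInert replicate 4, 1 gene was higher.

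**Figure D5:**
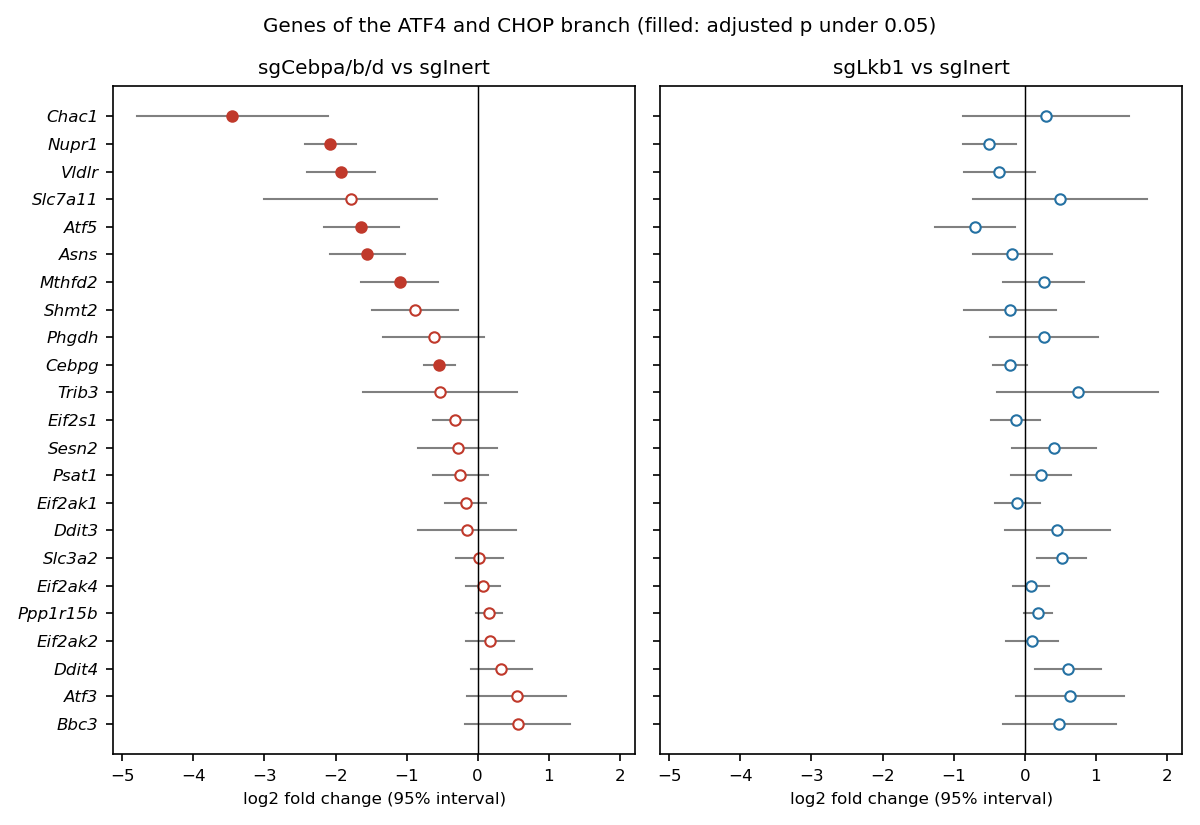
Log2 fold change (points) with its 95% interval (lines) for the 23 tested genes of the ATF4 and CHOP branch in sgCebpa/b/d (left) and sgLkb1 (right) against sgInert. The 7 filled points, which passed an adjusted p of 0.05, are in the left panel and lie between -3.45 (*Chac1*, at most 3 counts per sgCebpa/b/d library) and -0.54 (*Cebpg*).

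The remaining ER lists moved gene by gene. The shares called below are to be read against those of all genes, which are 4.73% higher and 5.36% lower in sgCebpa/b/d and 2.81% higher and 2.97% lower in sgLkb1. Oxidative folding had 4 of 22 genes lower in sgCebpa/b/d (18.2%) and 3 in sgLkb1 (13.6%), with 0 higher in both. *Ero1l*, which passes oxidising equivalents to protein disulfide isomerase, fell in both (-0.80 ± 0.15, adjusted p = 0.00126, and -0.64 ± 0.17, adjusted p = 0.0262). *Fkbp2*, a prolyl isomerase, fell in sgCebpa/b/d (-0.67 ± 0.18, adjusted p = 0.0198) and in sgLkb1 (-0.69 ± 0.20, adjusted p = 0.0417), and *Txndc5*, a disulfide isomerase, in sgLkb1 (-0.51 ± 0.12, adjusted p = 0.0128). Of the BiP cofactors and lumenal proteins, *Nucb2*, a calcium-binding protein, was the only 1 of 21 called (4.76%), and was lower in sgCebpa/b/d (-0.69 ± 0.10, adjusted p = 8.97e-05) and in sgLkb1 (-0.81 ± 0.11, adjusted p = 0.000115).

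In the other steps of the secretory route few genes were called, and in sgCebpa/b/d at shares near that of all genes for glycan addition, targeting and transport to the Golgi. Glycan addition had 1 of 19 lower in each comparison (5.26%), which was *Rpn1*, of the oligosaccharyltransferase, in sgCebpa/b/d (-0.39 ± 0.11) and *Mcfd2*, a cargo receptor subunit, in sgLkb1 (-0.43 ± 0.11), both with an adjusted p of 0.025. Of 22 genes for targeting and signal peptide cleavage, 1 fell in sgCebpa/b/d (4.55%; *Ssr1*, a translocon-associated protein, -0.53 ± 0.11, adjusted p = 0.00208) and 3 in sgLkb1 (13.6%), led by *Sec11c*, a signal peptidase subunit (-0.74 ± 0.14, adjusted p = 0.00272), and *Serp1* (-0.33 ± 0.09, adjusted p = 0.0332). Of 26 further degradation genes, 3 fell in sgCebpa/b/d (11.5%), led by *Selenos* (-0.64 ± 0.11, adjusted p = 0.000513), and 2 in sgLkb1 (7.69%). The latter were *Selenok* (-0.49 ± 0.10, adjusted p = 0.0031) and *Ubxn4* (-0.35 ± 0.08, adjusted p = 0.00951), and *Ubxn4* also fell in sgCebpa/b/d (-0.28 ± 0.07, adjusted p = 0.0112). Transport from the ER to the Golgi had 1 of 31 lower in sgCebpa/b/d (3.23%) and 3 in sgLkb1 (9.68%), where *Sec23b*, a coat subunit, stood at -0.46 ± 0.12 (adjusted p = 0.0239). *Bet1*, a SNARE protein, was lower in both (-0.75 ± 0.14, adjusted p = 0.00121, and -0.83 ± 0.16, adjusted p = 0.00248). The 16 other ER stress transducers had 2 higher in sgCebpa/b/d (12.5%), *Creb3l2* (0.67 ± 0.12, adjusted p = 0.000938) and *Atf6b* (0.68 ± 0.22, adjusted p = 0.0475), and 0 called in sgLkb1.

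Chaperones outside the ER gave a comparison of compartments. Of 30 cytosolic chaperones, 4 fell in sgLkb1 (13.3%), led by *Hsph1*, an exchange factor of HSP70 (-1.38 ± 0.32, adjusted p = 0.0111), and *Fkbp4*, a co-chaperone of HSP90 (-0.58 ± 0.14, adjusted p = 0.0184), while in sgCebpa/b/d (3.33% in each direction) *Hspb8* fell (-0.74 ± 0.15, adjusted p = 0.00183) and *Cct3* rose (0.38 ± 0.11, adjusted p = 0.037). The heat-shock genes *Hspa1b* (-2.35 ± 0.61, adjusted p = 0.0247) and *Hspa1a* (-2.18 ± 0.62, adjusted p = 0.0383), kept in the dissociation list, fell in sgLkb1, and their sgInert libraries spread from 6.03 to 10.56 and from 5.53 to 9.73 log2 CPM. Of 10 mitochondrial chaperones, 2 (20%) fell in sgCebpa/b/d (*Trap1*, -0.63 ± 0.17, adjusted p = 0.0189, and *Hspa9*, -0.29 ± 0.09, adjusted p = 0.0373) and 3 (30%) in sgLkb1, led by *Hspe1* (-0.65 ± 0.15, adjusted p = 0.00953) and *Trap1* (-0.75 ± 0.19, adjusted p = 0.0192).

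Set against sgLkb1, sgCebpa/b/d was higher in 2 of 22 oxidative folding genes (9.09%), *Txndc5* (0.63 ± 0.12, adjusted p = 0.00222) and *Ppic* (0.52 ± 0.14, adjusted p = 0.028). Of all genes 2.83% were higher and 3.12% lower. *Mcfd2* (0.46 ± 0.11, adjusted p = 0.0141) was the 1 of 19 glycan genes that was higher (5.26%). *Sec11c* (0.53 ± 0.14, adjusted p = 0.0266) was the 1 of 22 targeting genes (4.55%). Of 26 degradation genes 2 were lower in sgCebpa/b/d (7.69%), among them *Selenos* (-0.43 ± 0.12, adjusted p = 0.0381). Of 16 stress transducers *Creb3l2* was higher (0.63 ± 0.14, adjusted p = 0.00624) and *Bax*, which permeabilises mitochondria in apoptosis, lower (-0.85 ± 0.24, adjusted p = 0.0401), which is 6.25% in each direction. Of 30 cytosolic chaperones 3 were higher (10%), led by *Dnaja1* (0.65 ± 0.14, adjusted p = 0.00418), and *Hspb8* was lower (3.33%, -0.82 ± 0.16, adjusted p = 0.00229). Of 10 mitochondrial chaperones *Hspa9* was lower (10%, -0.33 ± 0.09, adjusted p = 0.0408).

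Markers of other cells and of the alveolar type II state moved with the groups, and their part in the member values was not tested. Of 14 alveolar type II genes, 9 (64.3%) fell in each comparison with sgInert, and their summed level was 86269 to 106101 CPM in sgInert, 53233 to 70153 in sgLkb1 and 37859 to 72941 in sgCebpa/b/d. *Lyz2* and *Abca3* led in sgCebpa/b/d (*Abca3*, -1.33 ± 0.13, adjusted p = 7.59e-07) and *Hc* and *Lyz2* in sgLkb1. Of 13 tested fibroblast genes *Dcn*, *Postn* and *Col3a1* rose in each comparison (23.1%), with sums of 24.9 to 207 CPM in sgInert, 134 to 391 in sgLkb1 and 83.2 to 324 in sgCebpa/b/d. Of 12 endothelial genes, 6 rose (50%) and 1 fell (8.33%) in sgCebpa/b/d and 1 rose in sgLkb1 (8.33%), with sums of 61.3 to 119 CPM in sgInert, 120 to 338 in sgLkb1 and 55.1 to 377 in sgCebpa/b/d. Within sgCebpa/b/d the endothelial sums were 55.1 to 108 CPM in the MT-numbered libraries, within or close to the sgInert range. In the unnumbered ones they were 282 to 377. Within sgLkb1 they were 120 to 196 and 202 to 338. Of 16 plasma and B cell genes, a cell type rich in these chaperones, 13 failed the filter on low counts, *Tnfrsf17* was at 0 in all 19 libraries and *Mzb1* had at most 4 counts, while *Jchain* reached 32 counts in a sgCebpa/b/d library, 24 in a sgInert library and 18 in a sgLkb1 library, and *Igkc* 62 in a sgLkb1 library; *Txndc5*, which the oxidative folding list also holds, was the only 1 called, lower in sgLkb1, and the sums were 60.5 to 99.3 CPM in sgInert, 63.7 to 88.4 in sgLkb1 and 71.1 to 106 in sgCebpa/b/d. The list of macrophage and other leukocyte genes had 15 of 21 tested, with *Lyz2* lower in both comparisons and *Cd14* higher in sgCebpa/b/d, and *Lyz2*, which the alveolar list also holds, fell by 3.52 in sgCebpa/b/d and by 1.94 in sgLkb1 on the log2 scale. The list as a whole lay the other way, with 13 of 15 genes not below 0 and a median of 1.98 in sgCebpa/b/d, and 12 of 15 and a median of 1.07 in sgLkb1. Without *Lyz2* its 20 genes summed to 16.4 to 92.0 CPM in sgInert, 29.5 to 233 in sgLkb1 and 37.9 to 258 in sgCebpa/b/d. *Ptprc*, which encodes CD45, had 0 to 20 counts per sgInert library, 0 to 265 per sgCebpa/b/d library and 2 to 370 per sgLkb1 library. Of 9 epithelial genes *Krt7* and *Krt18* rose in each comparison (sums of 1090 to 1542 CPM in sgInert, 1511 to 2052 in sgLkb1 and 1409 to 1706 in sgCebpa/b/d), and of 5 tested airway genes *Muc5ac* rose in sgCebpa/b/d while *Muc5b* rose and *Cyp2f2* fell in sgLkb1 (sums of 24.8 to 192, 34.1 to 109 and 31.7 to 172 CPM in sgInert, sgCebpa/b/d and sgLkb1).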

How the data were processed

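Bulk RNA-seq of sorted neoplastic cells was analysed in 19 libraries. Per the study's methods, the authors aligned paired reads to mm10 with STAR 2.6.1d (2-pass) and estimated gene levels with RSEM 1.2.30 from Trio RNA-Seq libraries. The values deposited by the authors are RSEM expected counts per gene, not normalized, TPM values scaled for length and library, and effective lengths in bases of the transcripts assigned to a gene. RSEM shares out reads that fit several genes. The authors' tables of normalized values and comparisons (DESeq2 1.26.0) hold fold changes and p-values and were not used.

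Expected counts were rounded and tested with edgeR 4.0.16 (R 4.3.3; TMM, filterByExpr with a minimum count of 10 and total of 15, quasi-likelihood test, all 19 libraries in 1 model without covariates), with Benjamini-Hochberg adjustment over 13986 genes. Log2 CPM used a prior count of 2, and log2(TPM + 1) a pseudocount of 1. Groups, sexes and title series came from the labels. Alternatives were DESeq2 1.42.0 and limma 3.58.1, other scalings and filters, length offsets, covariates, animal and replicate blocks, subsets and leaving out each library. Scripts were tested on simulated data. Among 52 replicate pairs the lowest chi-square per gene was 6.67, so no library was taken as a copy of another and each was counted as 1 sample. This check cannot show whether libraries of 1 animal are independent. With the animal as a random block, the estimated correlation between libraries of 1 animal was 0.408. Depth of 2760722 to 9944131 counts limits low genes most. Of 17 pairs of libraries sharing a replicate number across groups, 2 correlated above 0.1 in their deviations (-0.147 to 0.232), so the numbers were not taken as pairs. The members and lists were chosen with earlier results of these data known. All 33 members were accounted for, each called member is given with its values, 10 members are named whether called or not, and from each further pathway list the 2 called genes with the smallest p per comparison are named; marker lists follow no such rule. 1 allele shared by all groups and 1 gene of these lists are not reported here. Sequences are from RefSeq and gene positions from GENCODE M21.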

Additional observations from a re-analysis of the deposited data

Results flagged for a closer look

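Of 99 sets of values (33 members in 3 groups), 9 (9.09%) held a library far from the rest of its group in log2 CPM, where chance gives about 1 in 20. In sgLkb1, replicate 2 was lowest in *Hyou1* at 4.927 (others 5.57 to 5.819) and highest in *Edem1* at 6.695 (others 6.372 to 6.465), though still below the sgInert libraries. Replicate 1 was highest in *Calr* at 7.065 (others 6.87 to 6.909), replicate 3 in *Canx* at 9.161 (others 8.9 to 8.909), and replicate 5 was lowest in *Sdf2l1* at 1.05 (others 2.217 to 2.569). In sgInert, replicate 3 was lowest in *Pdia3* at 8.768 (others 9.101 to 9.214) and replicate 1 highest in *Atf6* at 7.681 (others 6.855 to 7.049). In sgCebpa/b/d, replicate 7 was lowest in *Eif2ak3* at 4.24 (others 4.825 to 5.205) and replicate 5 in *Edem2* at 2.748 (others 3.457 to 3.813). Without sgInert replicate 1, *Atf6* in sgCebpa/b/d remained called.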

How the results depend on the processing

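Members called higher against sgInert stayed at 0 in both comparisons without any of the 19 libraries and under all 17 other alternatives. Members called lower in sgCebpa/b/d against sgInert (4) were 2 among MT-numbered libraries, 2 among female libraries (added after seeing the data), 2 without the filter, 2 with the title series covariate, 1 without unnumbered libraries, 0 with log2(TPM + 1) and 0 with an absolute log2 fold change above 1 also required; without single libraries they were 3 to 6. Those lower in sgLkb1 (4) were 2 with 2 groups only, 2 without the filter, 2 without unnumbered libraries, and 0 with length offsets, log2(TPM + 1) or the fold threshold; without single libraries they were 2 to 4. Members higher in sgCebpa/b/d than sgLkb1 (2) were 4 with DESeq2, 4 among MT-numbered libraries, 4 with title series, 6 among females, 1 without the filter, and 0 with length offsets, log2(TPM + 1), the fold threshold, sums per animal or no unnumbered libraries; without single libraries 1 to 2. Members lower (0) were 1 with 2 groups only, among MT-numbered or female libraries and with log2(TPM + 1), and 0 to 1 without single libraries. The *Edem1* difference between sgCebpa/b/d and sgLkb1 reversed to -0.11 with length offsets and to -0.24 with log2(TPM + 1); the cause was not tested.

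With the replicate number as a block (replicate block), the calls against sgInert were 5 lower in sgCebpa/b/d and 4 in sgLkb1, and *Edem1* and *Ern1* were higher in sgCebpa/b/d than sgLkb1; *Sec61b* lost its call in sgLkb1 (-0.33, adjusted p = 0.107) and between the targeted groups (0.34, adjusted p = 0.112). *Edem1* in sgLkb1 was called in 14 of 16 alternatives that keep the threshold, *Ern1* in 13, *Atf6* in 11, *Derl1*, *P4hb* and *Ppib* in 10, *Dnajc3* in 8 and *Sec61b* in 6. The median of the members in sgLkb1 moved from -0.17 to -0.31 with sex as a covariate, -0.07 with title series and 0.04 with log2(TPM + 1), and all other settings left it within 1 SD of the libraries (0.06). Total counts limit *Derl3*, *Sdf2l1* and *Sec61g* most.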
